A study of Bos taurus with 8 samples.

Results

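Integrins, laminins and the proteins of focal adhesions form the link between mammary cells and the matrix under them, and 34 genes of this kind were followed in the udder of lactating cows as milk accumulated. The members were taken by symbol from the deposited expression table: every gene named as an integrin alpha or beta chain (ITGB2 excepted) or as a laminin alpha, beta or gamma chain, and the adaptors VCL, TLN1, PXN, ZYX, ILK, PTK2, FLNA, ACTN1, PARVA and LIMS1. They are 34 of the 9155 genes that the array's annotation names by a single symbol. Of the 10 adaptors, 7 were found, and PXN, PARVA and LIMS1 had no probe set under a single symbol and were not analysed here. The same held for ITGA6 and LAMA3. Within this rule, measured values entered only in that a gene with several probe sets is given by its brightest one. The rule itself was set with earlier results of these data known.

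Each of 4 lactating Holstein cows (Bos taurus) contributed a pair of mammary biopsies, one from a full gland, with 12 h of milk stasis, and one from an empty gland, with milk just removed (0 h). No other treatment or genotype is named. The 8 total RNA samples were read on 8 single-colour arrays of bovine probe sets, where a probe set is a group of short probes for 1 transcript, and each level below is a log2 value. Full was compared with empty gland within cows, which addresses how milk accumulation relates to expression.

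Integrins are pairs of an alpha and a beta chain that cross the cell membrane. Outside the cell they bind matrix proteins such as laminins, collagens and fibronectin, and inside it talin (TLN1), vinculin (VCL), filamin A (FLNA) and alpha-actinin (ACTN1) couple them to actin filaments. In the mammary gland the secretory and the contractile myoepithelial cells rest on a basement membrane rich in laminin, and contact with it through ITGB1 integrins is known to be needed for milk protein expression. Adhesions of this kind also sense stretch, to which a filling gland is exposed.

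No member passed the test of full against empty gland. In limma, a linear model fitted to all 24016 probe sets with cow as a block, 0 of 34 members had an adjusted p under 0.05, as had 0% of the 9155 genes. At an unadjusted p under 0.05 there was 1 member, ITGB6, or 2.94% of them, against 2.8% of all genes, of which 1.13% were higher and 1.67% lower. ITGB6 was also the only member higher in all 4 cows (2.94%, where 3.59% of all genes were), and no member was lower in all 4 (background 7.11%). The 4 full and the 4 empty values overlapped in each of the 34 members, and groups that did not overlap were seen in 0.35% of all genes with full above empty and 0.36% with full below. Apart from that of genes lower in all 4 cows, these shares of the members are near those of the array as a whole. With 4 pairs, an exact sign-flip permutation test of a single gene could not go below a two-sided p of 1 in 8. In whole tissue, fewer cells of a type and less RNA per cell cannot be told apart, nor can the state be told apart from anything else that differed between the samplings.

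The members instead divided by cow. In mean difference 26 of 34 were higher in full gland (76.5%, against 48.6% of all genes), with a median of 0.10 log2 against 0.00 over all genes. By cow, the members' median difference ran, from cow 1 to cow 4, to -0.17, 0.19, -0.02 and 0.34, against -0.05, 0.03, -0.02 and 0.02 over all genes. Higher levels in full gland were found for 8 of the 34 genes of cow 1 (background 36.9%), 25 of cow 2 (54.2%), 15 of cow 3 (44.3%) and 29 of cow 4 (53.2%). A pattern of higher in cows 2 and 4 and lower in cow 1 was shown by 21 members, or 61.8%, against 26.6% of all genes. For 14 of these, or 41.2% of the members, cow 3 was lower as well, against 17.3% of all genes. Without cows 2 and 4, 10 of 34 were higher in mean (29.4%), against 37.8% of all genes, and the members' median was -0.09. It was 0.04 without cow 2 and 0.0080 without cow 4.

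**Figure D1:**
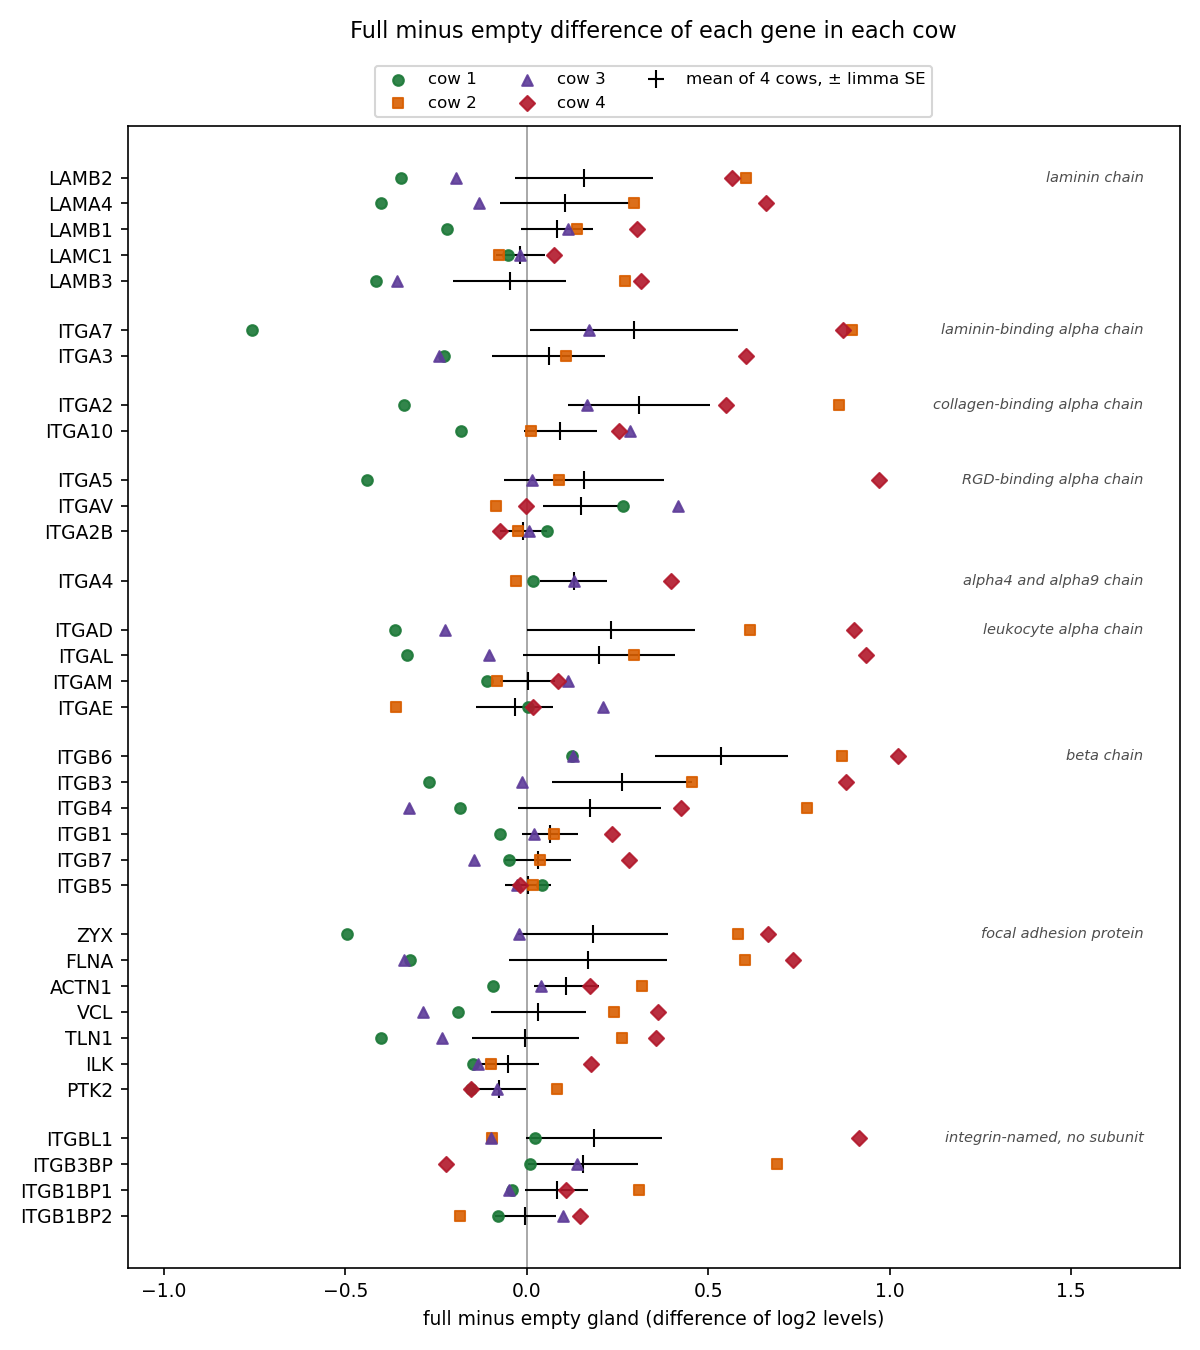
Full minus empty difference of log2 levels (horizontal axis) for each of the 34 genes, grouped by role; symbols are the 4 cows, and the black bar is the mean of the 4 with limma's moderated standard error (SE). Cows 2 and 4 lie mostly to the right of 0, cow 1 mostly to the left, and ITGB6 is the only gene with all 4 symbols to the right.

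Single cows have no replicate, so larger differences were counted by size only. In cow 4, 11 members were higher by more than 1.5-fold (32.4%, against 6.73% of all genes), namely FLNA, ITGA3, ITGA5, ITGA7, ITGAD, ITGAL, ITGB3, ITGB6, ITGBL1, LAMA4 and ZYX. In cow 2 there were 8 such members (23.5%, against 7.89%), namely FLNA, ITGA2, ITGA7, ITGAD, ITGB3BP, ITGB4, ITGB6 and LAMB2. FLNA, ITGA7, ITGAD and ITGB6 stood in both groups. Cow 1 and cow 3 each had 0 (background 0.218% and 0.273%). The reverse, a level more than 1.5-fold lower in full gland, was met by 1 member in cow 1, ITGA7 (background 0.907%), and by none in cows 2, 3 and 4 (background 4.47%, 0.35% and 1.46%).

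**Figure D2:**
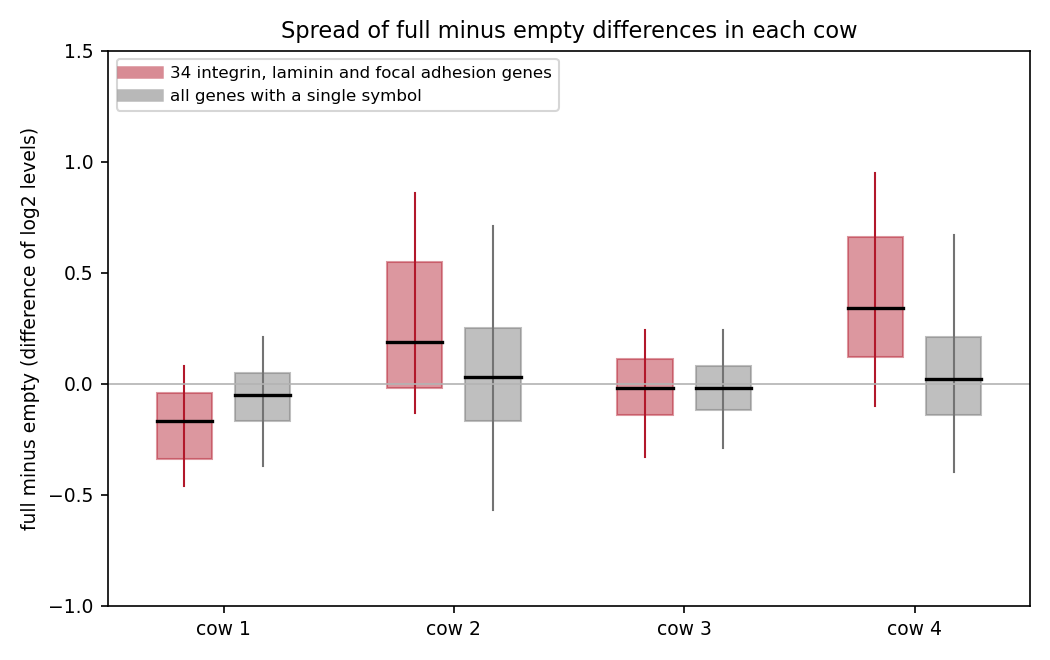
Full minus empty differences (vertical axis, log2) in each cow for the 34 genes (red) and for all 9155 genes (grey); boxes span the quartiles, black lines mark medians and whiskers run from the 5th to the 95th percentile. The members' quartile box reaches 0.55 in cow 2 and 0.66 in cow 4, against 0.25 and 0.21 for all genes, and lies below 0 in cow 1.

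The full arrays of cows 2 and 4 also differed from the other 6 arrays over the whole table. Their median correlations with the remaining arrays were 0.969 and 0.9753, where the rest had 0.9856 or more. Control probe sets at the 5' and 3' ends of housekeeping transcripts read how complete the RNA was. They departed in each of these libraries, but not the same controls in both. The 5' minus 3' log2 difference of the glyceraldehyde-phosphate dehydrogenase control was -3.31 for the full gland of cow 2 and -2.13 to -1.53 elsewhere. That of the elongation factor 1 alpha control was 0.75 for the full gland of cow 2 and 1.25 to 1.96 elsewhere. The actin control was at -1.36 in the full gland of cow 4 and -0.07 to 0.07 elsewhere. Their part in the members' differences was not tested. As to tissue, the milk protein LALBA had a mean level of 14.20, near the top of the scale, in each state (SD 0.03 for the 4 full and 0.05 for the 4 empty glands), as the label of lactating gland would have it.

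Among the beta chains, ITGB6 had the clearest difference. It pairs with ITGAV alone, in epithelial cells, and that receptor binds fibronectin and activates latent TGF-beta. In cows 1 to 4, ITGB6 read 6.39, 6.68, 5.91 and 6.85 in empty and 6.51, 7.55, 6.04 and 7.87 in full gland. Full was above empty within every cow, by little in cows 1 and 3 (0.12 and 0.13) and by more in cows 2 and 4 (0.87 and 1.02), while the groups overlapped between cows. The mean difference was 0.54 ± 0.18 log2 (SE, n = 4 cows), or 1.45-fold, with a 95% interval of 0.09 to 0.99 before adjustment. In limma its unadjusted p was 0.0272 and its adjusted p 0.993. Its difference was 0.37 without cow 4 and 0.13 without cows 2 and 4, and the adjusted p lay between 0.728 and 1 over the 12 settings that include it.

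ITGAV, the alpha chain that ITGB6 needs, showed the other order of cows. Its levels in cows 1 to 4 were 8.29, 8.47, 8.46 and 8.76 in empty and 8.55, 8.39, 8.88 and 8.76 in full gland. ITGAV was thus higher in full gland of cows 1 and 3 (0.27 and 0.42) and nearly level in cows 2 and 4 (-0.08 and -0.00), the cows in which ITGB6 differed most. The mean difference of this brightest probe set was 0.15 ± 0.10 (SE, n = 4 cows; limma adjusted p = 0.993). A second ITGAV probe set gave 0.24, -0.31, 0.42 and -0.07, with a mean of 0.07.

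ITGB1, the partner of most matrix-binding alpha chains, varied little. It read 11.40, 11.59, 11.59 and 11.50 in empty and 11.33, 11.66, 11.61 and 11.74 in full gland of cows 1 to 4. The difference was 0.06 ± 0.08 (SE, n = 4 cows), with a 95% interval of -0.13 to 0.26 (limma adjusted p = 0.993). ITGB5, which pairs with ITGAV to bind vitronectin, was at 13.71 in both states (SD 0.02 empty and 0.04 full, n = 4), brighter than 99.9% of probe sets. A second and dimmer ITGB5 probe set, at 8.33, went with the cows instead, at -0.36, 0.33, -0.14 and 0.40. The bright ITGB5 probe set lies near the highest value of the table, 14.43, and whether its signal could still rise there was not tested.

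ITGB4, which pairs with the laminin receptor chain ITGA6 in the hemidesmosomes that anchor epithelium, read 6.92, 6.74, 6.92 and 6.90 in empty and 6.74, 7.52, 6.59 and 7.32 in full gland of cows 1 to 4. The empty glands lay within 0.2 log2 of one another, and the full glands lay above them in cows 2 and 4 and below them in cows 1 and 3. Its mean difference of 0.17 ± 0.20 (SE, n = 4 cows; limma adjusted p = 0.993) was -0.03 without cow 2 and -0.25 without cows 2 and 4. ITGB3, which pairs with ITGAV and, on platelets, with ITGA2B, behaved alike, with differences of -0.27, 0.45, -0.01 and 0.88. Its other 3 probe sets were dim, between 5.38 and 5.83, and had mean differences of 0.03 to 0.05 against 0.26 for the brightest. ITGB7, a lymphocyte chain, differed by -0.05, 0.04, -0.15 and 0.28.

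The collagen receptor chain ITGA2, carried by epithelial cells and platelets, had the second largest mean difference of the members, 0.31 ± 0.20 (SE, n = 4 cows; limma adjusted p = 0.993). Its levels in cows 1 to 4 were 6.93, 6.77, 6.31 and 7.37 in empty and 6.59, 7.63, 6.48 and 7.92 in full gland. Full exceeded empty in cows 2, 3 and 4 but not in cow 1, at -0.34, and without cows 2 and 4 the mean difference was -0.09. The second ITGA2 probe set showed the same signs, at -0.05, 0.43, 0.06 and 0.58. ITGA10, a collagen receptor best known from cartilage, differed by -0.18, 0.01, 0.28 and 0.26, and its dimmer probe set by 0.10, -0.29, -0.04 and -0.02.

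The laminin receptor chains ITGA3 and ITGA7 were both lower in full gland of cow 1 and higher in cows 2 and 4. ITGA7, typical of muscle, read 7.90, 8.06, 7.30 and 7.85 in empty and 7.15, 8.96, 7.47 and 8.73 in full gland. These values, described after they were seen, hold the widest range among the members, from -0.76 in cow 1 to 0.90 in cow 2. The other 2 probe sets of ITGA7 differed by -0.30 and -0.21 in cow 2, where the brightest gave 0.90, so the probe sets disagree. ITGA3, an epithelial chain, differed by -0.23, 0.11, -0.24 and 0.60. Skeletal muscle markers had medians of -0.05, -0.09, 0.06 and 0.06 in cows 1 to 4 over 7 measured of 8, and their mean level over the list ranged from 7.50 to 7.68 in empty and 7.46 to 7.80 in full gland. Single markers departed from these medians. CKM differed by -0.22, 0.26, 0.13 and 0.55, and ACTA1 by 1.77 in cow 4. NEB was lower in all 4 cows (-0.28, -1.19, -0.73 and -0.37), as were 7.11% of all genes. MYL1, TNNT1, ACTA1 and TNNT3 were dim, with mean empty levels of 5.66 to 6.25. The part of muscle in the ITGA7 differences was not tested.

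The fibronectin receptor chain ITGA5 differed by -0.44, 0.09, 0.01 and 0.97, so that cow 4 alone carried its mean of 0.16 ± 0.22 (SE, n = 4 cows; limma adjusted p = 0.993). A further ITGA5 probe set followed at 0.57 in cow 4, and the remaining one gave 0.04. ITGA2B, the platelet fibrinogen receptor chain, was dim and flat: 5.98 ± 0.04 without milk and 5.97 ± 0.09 with it (SD, n = 4). ITGA4, a leukocyte chain that binds VCAM1 and fibronectin, read 5.42, 5.49, 5.43 and 5.34 in empty and 5.44, 5.46, 5.56 and 5.73 in full gland. All 8 ITGA4 values lay among the dimmest probe sets, at the 6.93rd percentile on average, and only the full gland of cow 4 stood clear of the empty range by more than 0.2 log2.

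Of the leukocyte integrin chains, ITGAD and ITGAL differed in the same cows. Both pair with ITGB2, and ITGAL forms the lymphocyte receptor for ICAM1. ITGAD read 7.52, 7.35, 6.84 and 7.52 in empty and 7.15, 7.97, 6.61 and 8.42 in full gland, and ITGAL differed by -0.33, 0.30, -0.10 and 0.94. The second ITGAL probe set gave less in cow 4, at 0.37. That of ITGAD was dim, at 5.62, and had the opposite sign in every cow, at 0.17, -0.02, 0.19 and -0.20. The probe sets of ITGAD thus disagree. ITGAM, the myeloid chain and a close relative of ITGAD, was at the 1.77th percentile of brightness, with differences between -0.11 and 0.11. ITGAE, which with ITGB7 holds lymphocytes to E-cadherin on epithelium, had -0.36 in cow 2 and 0.21 in cow 3.

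Markers of other cells that the biopsies could hold were read beside these members, and none passed the test. Myeloid markers (8 measured of 9) had medians of -0.36, 0.26, -0.17 and 0.84 in cows 1 to 4, and T and natural killer cell markers (8 of 8) -0.19, 0.36, -0.11 and 0.46. The mean level over the myeloid list ranged from 8.36 to 8.78 in empty and from 8.26 to 9.33 in full gland, and over the T and natural killer list from 6.75 to 7.15 and from 6.64 to 7.23. Single markers departed from their list, as CD14 of the myeloid list did in cow 2 at -0.97. B and plasma cell markers (4 of 6) had medians of -0.09, 0.03, -0.08 and 0.53, with mean levels of 7.69 to 8.14 in empty and 7.57 to 8.28 in full gland. The only platelet marker measured (1 of 4), PF4, differed by -0.02, -0.95, -0.50 and 0.59, at 5.71 to 7.93 in empty and 5.93 to 6.98 in full gland. Array signals have no true 0, so no marker can be called absent. The part of these cells in the members' differences was not tested.

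Laminins are the ligands of these receptors in the basement membrane, each built of an alpha, a beta and a gamma chain. Of the 5 measured chains 4 were higher in full gland of cow 2 and 5 in cow 4, against 0 in cow 1 and 1 in cow 3. LAMB1, a widespread beta chain, read 10.88, 10.46, 10.50 and 10.55 in empty and 10.66, 10.60, 10.62 and 10.86 in full gland of cows 1 to 4. The spread of LAMB1 was narrow, with a difference of 0.08 ± 0.10 (SE, n = 4 cows; limma adjusted p = 0.993), and cow 1 was the exception at -0.22. LAMC1, the gamma chain shared by most laminins, had 6 probe sets, whose mean differences lay between -0.03 and 0.06. The brightest LAMC1 probe set differed by -0.05, -0.08, -0.02 and 0.08, less in any cow than the other chains did in cows 1 and 4, while the dimmer ones reached 0.58 in cow 4.

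LAMB2, the beta chain of vessel and muscle basement membranes, read 8.72, 8.55, 8.41 and 8.52 in empty and 8.37, 9.16, 8.22 and 9.08 in full gland. LAMA4, the alpha chain of vessel laminin, read 9.41, 8.99, 9.10 and 9.07 in empty and 9.01, 9.28, 8.96 and 9.73 in full gland. Both chains were lower in full gland of cows 1 and 3 and higher in cows 2 and 4. Their means of 0.16 ± 0.19 and 0.10 ± 0.18 (SE, n = 4 cows; limma adjusted p = 0.993 for each) became -0.27 for each without cows 2 and 4, and LAMA4 was at -0.08 without cow 4. The second LAMA4 probe set had the same signs, at -0.41, 0.92, -0.04 and 0.44. The medians of endothelial markers (8 measured of 9) had other signs, at -0.16, -0.36, 0.09 and 0.14, and their mean level ranged from 8.76 to 9.02 in empty and 8.60 to 8.94 in full gland. The list was split. In cow 2, 2 of the 8 were higher, PECAM1 by 0.20 and CLDN5 by 0.25. In cow 4, 6 of the 8 were higher, PECAM1 (0.37) and CLDN5 (0.31) among them. The part of vessel cells in the members' differences was not tested.

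LAMB3, the beta chain of the laminin under epithelial hemidesmosomes, read 7.92, 7.97, 7.70 and 7.95 in empty and 7.51, 8.24, 7.34 and 8.26 in full gland. Its cows split evenly, at -0.42, 0.27, -0.36 and 0.31, and the mean difference was -0.05 ± 0.15 (SE, n = 4 cows; limma adjusted p = 0.993). These signs by cow are those of 14 members in all, ITGB4 among them, and of 17.3% of all genes.

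**Figure D3:**
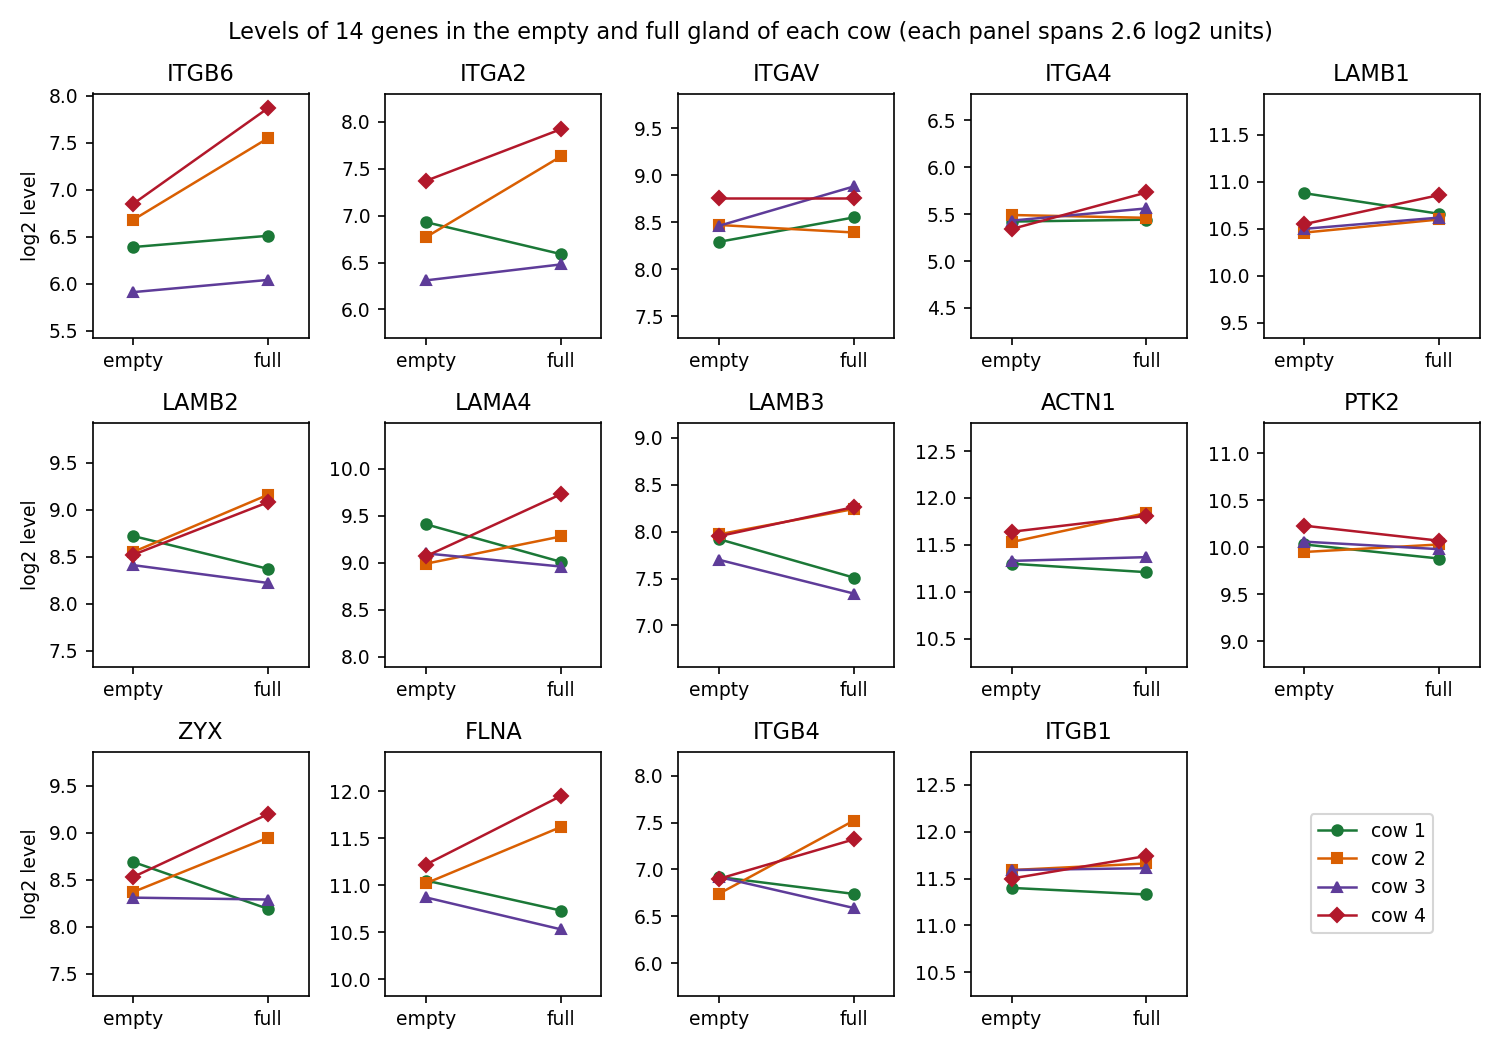
Log2 levels of 14 genes in the empty and full gland of each cow, with lines joining the biopsies of a cow; every panel spans the same range of levels. ITGB6 climbs most steeply in cows 2 and 4, and ITGA2 comes close to it in cow 2 but not in cow 4. LAMB2, LAMB3, FLNA and ITGB4 fan out from close empty values, and PTK2 and ITGB1 stay nearly level.

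The adaptors that couple integrins to actin followed the same cows. Over the 7 focal adhesion proteins the medians were -0.19, 0.26, -0.13 and 0.36 in cows 1 to 4, with 0, 6, 1 and 6 of them higher in full gland. FLNA, which crosslinks actin and binds beta chains, read 11.05, 11.02, 10.87 and 11.22 in empty and 10.73, 11.62, 10.53 and 11.95 in full gland. ZYX, zyxin, which moves to adhesions and stress fibres under tension, read 8.69, 8.37, 8.31 and 8.53 in empty and 8.19, 8.95, 8.29 and 9.20 in full gland. In both genes the full glands of cows 2 and 4 were above all 4 empty values and those of cows 1 and 3 below them.

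The mean difference was 0.17 ± 0.22 for FLNA and 0.18 ± 0.21 for ZYX (SE, n = 4 cows; limma adjusted p = 0.993 for each). Without cows 2 and 4 these became -0.33 and -0.26, and FLNA was at -0.02 without cow 4. A second ZYX probe set had the same signs in all 4 cows (-0.08, 0.09, -0.04 and 0.64), whereas a dim second FLNA probe set, at 6.13, gave -0.33 in cow 2. TLN1, talin, which switches integrins on from inside, had differences of -0.40, 0.26, -0.23 and 0.36, and VCL, vinculin, which reinforces loaded adhesions, -0.19, 0.24, -0.28 and 0.36. Their means were -0.00 ± 0.15 and 0.03 ± 0.13. The second probe sets differed from these. That of TLN1, at a level of 9.31, gave 0.01, 0.17, -0.03 and 0.68, with a mean of 0.21. That of VCL, at 7.11, was higher in all 4 cows, by 0.26, 0.11, 0.02 and 0.22, with a mean of 0.15.

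ACTN1, alpha-actinin, read 11.30, 11.53, 11.33 and 11.64 in empty and 11.21, 11.84, 11.37 and 11.81 in full gland. The difference of its brightest probe set was 0.11 ± 0.09 (SE, n = 4 cows; limma adjusted p = 0.993), but 2 dimmer probe sets gave -0.94 and -1.01 in cow 2 where the brightest gave 0.32. The mean over the 3 probe sets was -0.04, so the sign for ACTN1 depends on the probe set. PTK2, the focal adhesion kinase, read 10.03, 9.95, 10.06 and 10.23 in empty and 9.88, 10.03, 9.98 and 10.07 in full gland. PTK2 had the lowest mean of all members, -0.08 ± 0.07 (SE, n = 4 cows; limma adjusted p = 0.993), and was lower in cows 1, 3 and 4. ILK, the pseudokinase that joins beta chains to parvin, was lower in cows 1, 2 and 3, at -0.15, -0.10 and -0.13, and at 0.18 in cow 4.

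The symbol rule also took in 4 genes that are no integrin subunits. ITGB1BP1, a protein that binds the ITGB1 tail, differed by -0.04, 0.31, -0.05 and 0.11. ITGB1BP2, the muscle protein melusin, was dim, at 6.05 in both states. ITGB3BP, also a centromere protein, was at 0.69 in cow 2 and -0.22 in cow 4, and another of its probe sets gave 0.86 in cow 2. ITGBL1, a secreted protein with integrin-like repeats, differed by 0.92 in cow 4 and by -0.10 to 0.02 in the other cows.

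Whether the further probe sets of a gene repeat the brightest was read from the 20 members with more than 1, which have 31 further probe sets. In cow 4, 16 of the 20 brightest and 25 of the 31 further probe sets were higher in full gland, with medians of 0.36 and 0.13. In cow 2, 16 of 20 brightest but 15 of 31 further probe sets were higher, with medians of 0.28 and -0.02. In cow 1, 3 of 20 brightest and 17 of 31 further probe sets were higher. The pattern by cow is thus one of the brightest probe sets, and the dimmer ones repeat it in cow 4 but not in cows 1 and 2. All probe sets of a gene shared the sign of the mean difference in 13 of the 20 genes.

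**Figure D4:**
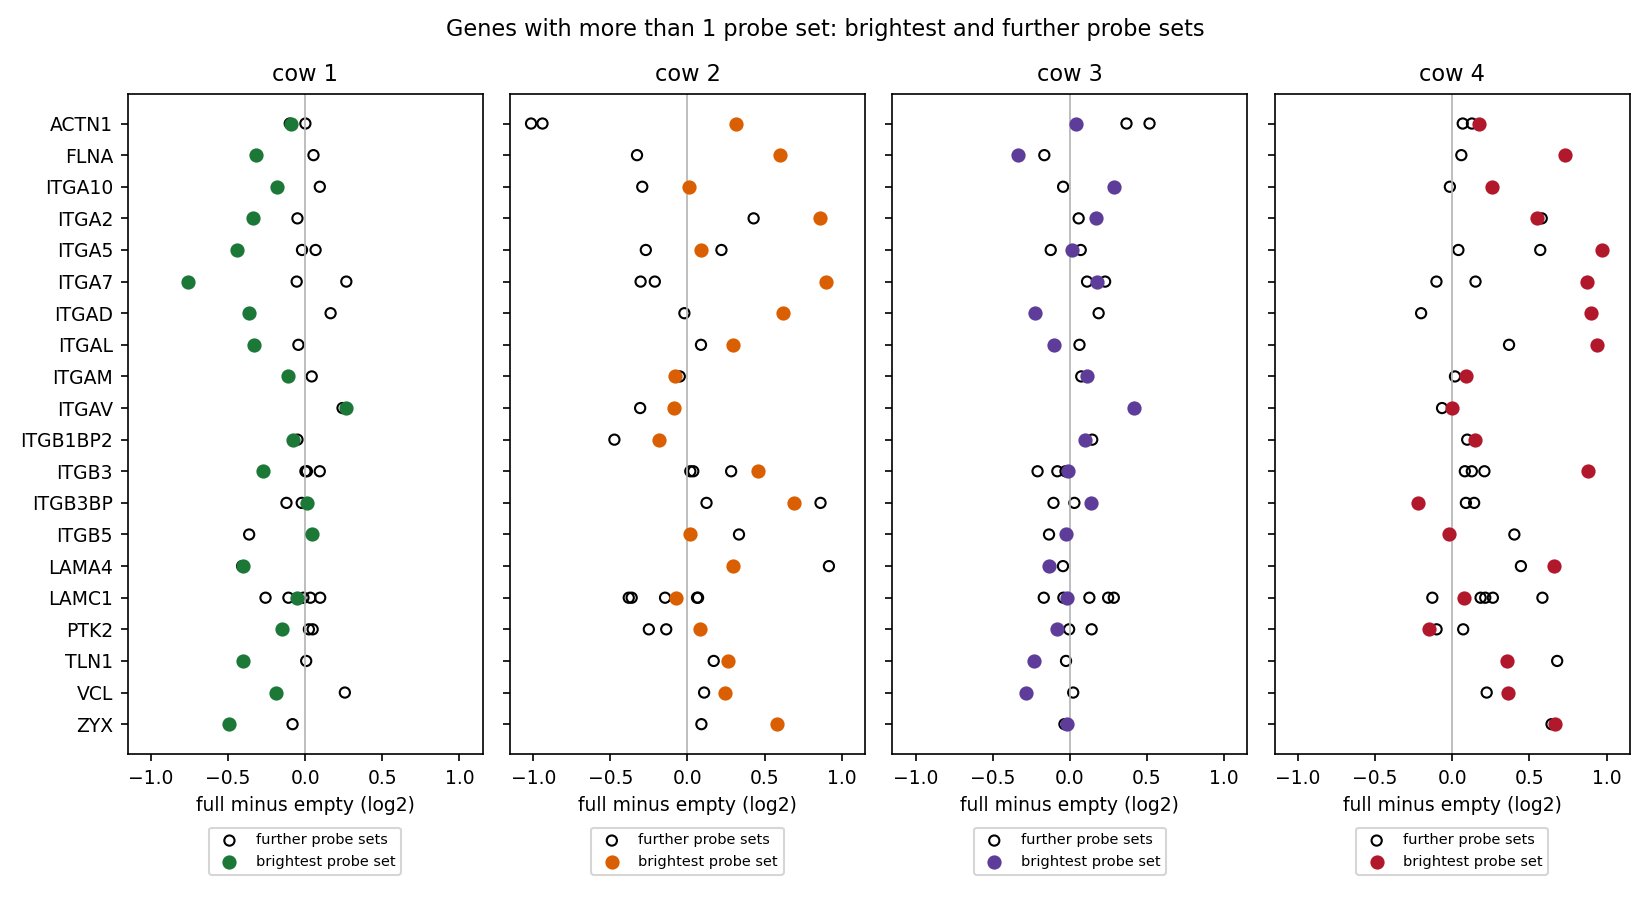
Full minus empty difference (log2) in each cow for the 20 genes with more than 1 probe set; filled symbols are the brightest probe set, used throughout, and open circles the 31 further ones. ITGA2, ITGAV, LAMA4 and ZYX have probe sets that lie on the same side of 0 in each cow, while those of ACTN1, FLNA and ITGA7 lie on opposite sides in cow 2.

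Levels were also compared between cows, over both states. By an F-test over the cow terms in limma, 0 of 34 members had an adjusted p under 0.05, against 0.481% of genes. At an unadjusted p under 0.05 there were 5 members, ACTN1, ITGA2, ITGAD, ITGB6 and LAMC1, or 14.7%, against 16.9% of all genes. ITGB6 had the widest range between cows, with means over both states of 6.45, 7.11, 5.97 and 7.36 in cows 1 to 4 (adjusted p = 0.196 in limma's F-test). ITGA2 (6.76, 7.20, 6.39 and 7.65) and ITGAD (7.34, 7.66, 6.73 and 7.97) had the same order of cows, with cow 3 lowest and cow 4 highest. The spread over the 4 cows was wider in full than in empty gland for 32 of 34 members, or 94.1%, against 75.2% of all genes. LAMB1 and PTK2 were the exceptions.

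Other genes of the adhesion pathway were read from lists drawn up from general knowledge. Of 20 measured scaffold and actin linker genes, 18 were higher and 2 lower in mean, none passed, and the median was 0.12 against 0.00 over all genes. FERMT2, kindlin-2, which helps talin activate integrins, was the one higher in all 4 cows, at 0.21 ± 0.10 (SE, n = 4 cows; limma adjusted p = 0.993). Of all genes, 3.59% were higher in all 4 cows. TGFB1I1, a paxillin relative also called Hic-5, was at 0.31, TLN2, the second talin, at -0.24, and LASP1, an actin-binding LIM protein, at -0.04. The list's medians of -0.24, 0.31, -0.05 and 0.46 in cows 1 to 4 were like those of the members.

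Of 28 measured kinase and GTPase signalling genes, 18 were higher and 10 lower, none passed, and the median was 0.04. NEDD9, a docking protein downstream of focal adhesion kinase, was higher in all 4 cows, by 0.21, 0.18, 0.16 and 0.78, with a mean of 0.33 ± 0.13 (SE, n = 4 cows; limma adjusted p = 0.993). PTPRA, a phosphatase that activates SRC, was at 0.15 and higher in all 4 cows. The kinase AKT1 was at -0.17, and the adaptor SHC1 was at -0.07 and lower in all 4 cows. In this list 2 genes were higher in all 4 cows (3.59% of all genes were). Another 2, SHC1 and BCAR1, were lower in all 4 (7.11% of all genes). Basement membrane partners were mixed, with 8 of 13 higher, none passing and a median of 0.05. NID1 and NID2, the nidogens that bridge laminin and type IV collagen, differed by -0.17 and 0.19, COL4A3 by -0.09, and TNC, tenascin, by 0.54, of which cow 4 gave 2.13.

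Hemidesmosome and tetraspanin genes had 3 of 5 higher and a median of 0.04, with COL17A1, the hemidesmosomal collagen, at 0.16, CD9 at 0.08, CD63 at -0.02 and CD81 at -0.25, and none passed. Of 14 other integrin ligands 9 were higher, none passed, and the median was 0.09. CCN2 and CCN1, secreted matricellular proteins that bind integrins, were higher in all 4 cows, by 0.37 to 1.00 and by 0.46 to 2.09 (limma adjusted p = 0.993 for each). Milk fat globule protein MFGE8, which binds ITGAV receptors, was lower in all 4 cows, at -0.12 ± 0.07 (SE, n = 4 cows), and THBS1 was at -0.05. Among these 14 ligands, 2 were thus higher in all 4 cows (3.59% of all genes were) and 1 was lower (7.11% of all genes).

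Markers of the epithelial and stromal cells that carry the members went as follows. Myoepithelial markers (9 measured of 10) had medians of -0.01, 0.18, -0.15 and 0.67 in cows 1 to 4, and fibroblast markers (9 of 9) -0.17, 0.15, -0.06 and 0.55. Within the myoepithelial list, read after its values were seen, the genes differed in course. The basal keratins KRT5 (-0.43, 0.84, -0.30 and 0.68) and KRT14 (-0.56, 1.29, 0.11 and 1.53) were higher in full gland of cow 2. The contractile genes were split there. TAGLN (0.22, -0.80, 0.45 and 0.67) and ACTA2 (0.03, -0.28, 0.10 and 0.70) were lower in cow 2, whereas CNN1, MYLK and MYH11 were higher, by 0.67, 0.42 and 0.18. KRT17 was higher in all 4 cows (0.03, 0.05, 0.26 and 0.48), as were 3.59% of all genes. Luminal markers (9 of 9) had medians of 0.02, 0.10, 0.01 and 0.00, but the list was split. In cows 2 and 4, KRT18 differed by 1.19 and 1.36, KRT7 by 1.21 and 0.80, KRT8 by 0.11 and 1.21, and EPCAM by 0.81 and 0.23. The rest, KRT19, ELF5, CSN2, CSN3 and LALBA, differed by -0.29 to 0.10 there. Their mean empty levels of 13.29 to 14.20 lie near the highest value of the table, 14.43, and whether they could still rise was not tested. The mean level over the myoepithelial list was 9.71 to 10.14 in empty and 9.68 to 10.77 in full gland, over the fibroblast list 9.88 to 10.38 and 9.84 to 10.89, and over the luminal list 11.64 to 11.88 and 11.64 to 12.25. Their part in the members' differences was not tested.

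**Figure D5:**
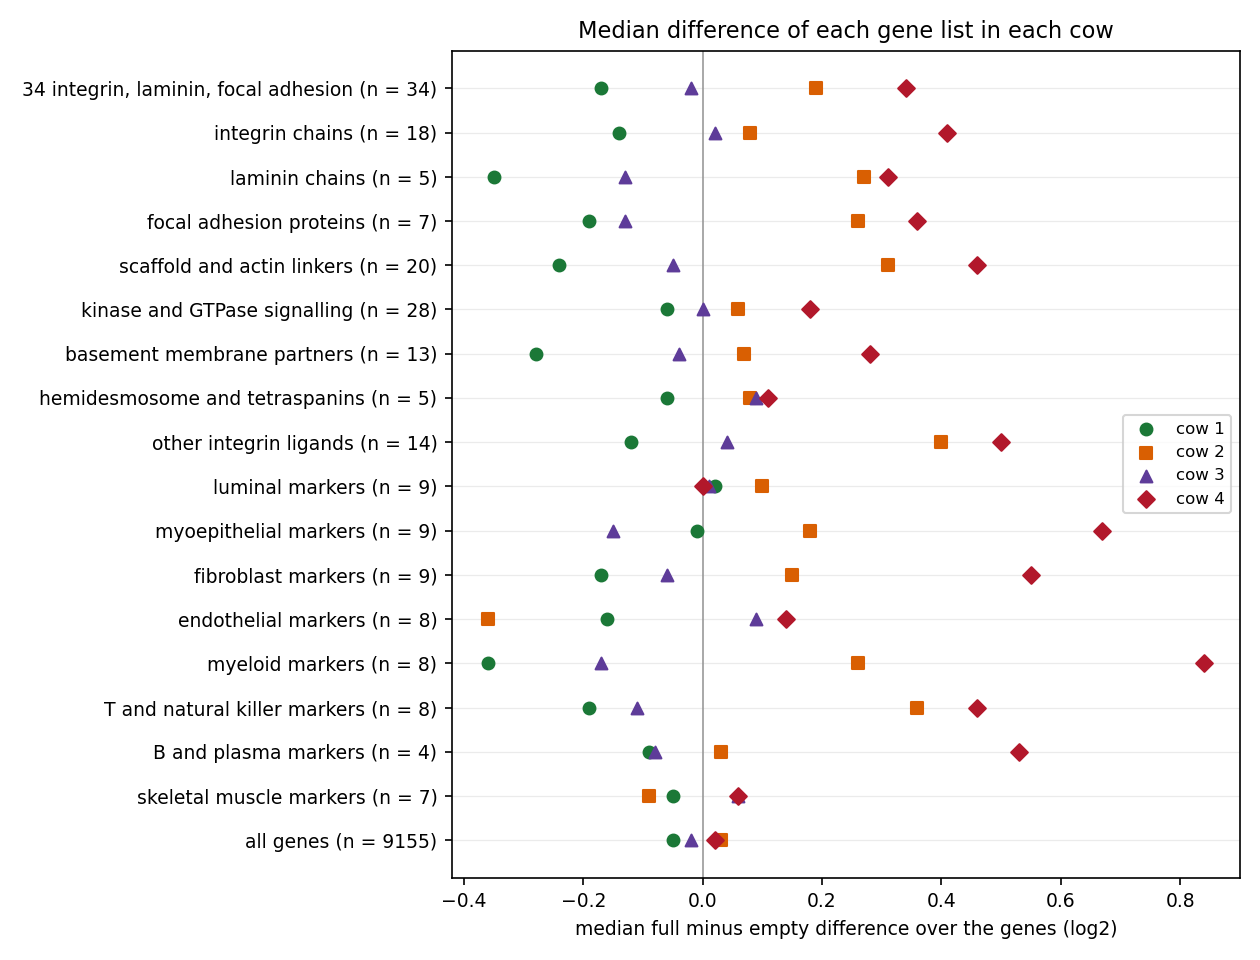
Median full minus empty difference (log2) of each gene list in each cow, with the number of measured genes in brackets. The integrin, laminin and focal adhesion genes rise in the order cow 1, cow 3, cow 2, cow 4. So do the scaffold, kinase, basement membrane and other ligand lists, and the fibroblast, myeloid, T and natural killer, and B and plasma markers. Hemidesmosome genes and myoepithelial, endothelial and skeletal muscle markers have other orders. The medians of luminal markers and all genes stay within 0.10 of 0.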

How the data were processed

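Expression was measured in 8 samples, full and empty gland of 4 cows, and arrays have no read depth, so their number limits the precision. The authors deposited log2 values, 1 for each probe set on each array, summarised by RMA (version not given in the sources used here) per the submitters' processing notes. The medians of the 8 arrays lay between 7.08 and 7.24. Per the labels' protocols, 2 ug of RNA was primed with oligo(dT). Of 24128 probe sets, 112 platform controls were left out; of the rest, 13292 had 1 symbol, 86 several and 10638 none. All 34 members matched RefSeq (ARS-UCD2.0) under the same symbol. A gene is its probe set with the highest mean over the 8 arrays.

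Full was compared with empty gland in limma 3.58.1 (R 4.3.3; lmFit and eBayes, two-sided, Benjamini-Hochberg over 24016 probe sets, threshold 0.05), with state and cow as fixed terms. The sample descriptions tie each pair to a cow; as a check, deviations from group means correlated at 0.457, 0.319, 0.597 and 0.525 within cows 1 to 4 and at -0.03 or below between cows. Means carry SD, differences limma's moderated SE. The script was tested on simulated data. Members and lists were chosen with earlier results of these data known. Values in all arrays are given for the 4 integrin chains, laminin chains and focal adhesion proteins with the smallest p in each class, and for ITGB1, ITGB4 and LAMB3; from each pathway list, the 2 genes per direction with the smallest p. Other values, including those of ITGA7 and ITGAD, were chosen after they were seen. Alternatives were another treatment of cow, scaling, dim probe sets, prior, threshold, fold minimum, probe set rule, and cows left out.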

Additional observations from a re-analysis of the deposited data

Results flagged for a closer look

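In 68 groups of 4 values (34 members in 2 states), 4 had a cow set apart from the other 3 by a gap past the 95% critical value of Dixon's ratio (gap over range), and chance gives about 5% of groups. ITGA5 in full gland was 8.93 in cow 4 and 7.71 to 7.89 in the others. ITGB1BP1 in full gland was 9.05 in cow 2 and 8.74 to 8.76 in the others. ITGB4 in empty gland was 6.74 in cow 2 and 6.90 to 6.92 in the others, so that part of its difference in cow 2 comes from a low empty value. LAMB3 in empty gland was 7.70 in cow 3 and 7.92 to 7.97 in the others.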

How the results depend on the processing

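No member passed in full against empty gland under any setting run: no replicate block (0 probe sets called, 0 members), median centring, cow as a random block, brighter probe sets (26 members), quantile normalization repeated, trend and robust prior, mean of a gene's probe sets, adjusted p of 0.1, 1.5-fold minimum and each cow left out. Leaving out the pairing by cow changed no call. The members' median of 0.0988 ranged from 0.00801 to 0.172 with 1 cow left out, and was -0.0912 without cows 2 and 4, a setting added after seeing the data. Between cows, 105 probe sets passed, 208 after median centring, 248 with trend and robust prior, and 13 to 131 with 1 cow left out; no member did under these settings. Of 14 genes followed, ITGB6, ITGAV, ITGA4 and PTK2 kept their sign throughout. With 1 cow left out the sign turned for LAMB3 (-0.167 to 0.0761; 0.0564 without cow 3), ITGB4 (-0.0271 to 0.339), LAMA4 (-0.0798 to 0.273) and FLNA (-0.0192 to 0.338). Without cows 2 and 4 it turned for ITGA2 (-0.0851), LAMB1 (-0.0528), LAMB2 (-0.271), LAMA4 (-0.267), ACTN1 (-0.026), ZYX (-0.258), FLNA (-0.33), ITGB4 (-0.253) and ITGB1 (-0.0266). ACTN1 turned with the mean of its probe sets (-0.0446). The cause was not tested.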
